A study of Mus musculus with 12 samples.

Results

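The dox response of Gcn5-depleted fibroblasts was measured in 4 of the 12 RNA-seq libraries of the series: 2 libraries of mouse embryonic fibroblasts transfected with siGcn5 and given doxycycline (dox), and 2 transfected with siGcn5 and given no dox. They were chosen by their labels alone, and all genes were compared. The fibroblasts are secondary 1B cells, in which dox switches on integrated reprogramming factors; dox was added in mouse ES cell medium 24 h after transfection and kept for 2 days. The other 8 libraries are the matching pairs with control siRNA (siControl) and with siRNA against Myc (siMyc), each without and with dox, in the same 1B cells. Both siRNA pools at 40 nM and single siRNAs at 10 nM are described in the labels, and neither is tied to a library. The labels give the medium of the cells without dox for chromatin samples and not for these RNA libraries, so dox and a change of medium cannot be told apart here. No label says that the 2 libraries of a group came from separate cultures; the p-values below then measure the spread between libraries, which may be technical.

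Gcn5, encoded by Kat2a, is a histone acetyltransferase that works in the SAGA and ATAC coactivator complexes, where it acetylates histone H3 at promoters. Reprogramming with Oct4 (Pou5f1), Sox2, Klf4 and Myc begins with loss of the mesenchymal programme of the fibroblast, a rise in growth and cell-cycle genes and gain of epithelial genes, while the genes of the pluripotency network are activated much later. Myc is known for driving ribosome, nucleotide and cell-cycle genes and binds the E-box sequence CACGTG.

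Values are RPKM, read counts scaled by gene length and by the reads of the library. A dox response is the difference of the mean log2(RPKM + 1) with and without dox, given with its standard error (SE). It understates the change of genes near 0. A gene was said to rise or fall when the Benjamini-Hochberg adjusted p from limma was under 0.05 over the 13175 genes tested, those with an RPKM of at least 1 in at least 2 libraries, out of 23284 gene symbols. Depths were 65.5 to 188 M reads, with 124 and 86.4 M in the siGcn5 libraries without dox and 102 and 92.5 M in those with dox. Replicate libraries had Spearman correlations of 0.989 to 0.991 across genes. The siGcn5 libraries with dox stood apart from each other: on the first principal component (51.9% of the variance), replicate 1 lay at 26.2 and replicate 2 at 41.1, against -38.9 and -38.6 without dox, while the siControl pair with dox lay at 63.3 and 66.6 and the siMyc pair with dox at 15.8 and 22.6. In bulk RNA, fewer cells of a type and less RNA per cell cannot be told apart.

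Kat2a, the targeted gene, stood at an RPKM of 23 and 20.7 in the siControl libraries without dox and 55.7 and 53.1 with dox. In the siGcn5 libraries it stood at 1.33 and 1.97 without dox and 6.27 and 9.11 with dox. Every siGcn5 library thus lay below every siControl library, and within the siGcn5 pair Kat2a rose with dox by 1.70 on the log2 scale (SE 0.15, adjusted p = 1.0e-05). The difference from the siControl response was 0.42 (adjusted p = 0.16). Kat2b, the close paralog of Gcn5, fell from 6.11 and 5.98 to 4.01 and 3.49 (log2 change -0.57, SE 0.08, adjusted p = 2.1e-04).

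The introduced factors were induced in both siGcn5 libraries with dox. RPKM does not separate transcripts of the introduced factors from those of the cell's own genes. Pou5f1 went from 2.53 and 2.58 to 137 and 200.21 RPKM, with no overlap, a log2 change of 5.55 (SE 0.17, adjusted p = 4.4e-09). In siControl cells it went from 1.3 and 0.942 to 288 and 249, so the level reached was higher there, and the siGcn5 response differed by -1.44 (SE 0.24, adjusted p = 0.0045). Sox2 reached 13.6 and 25.4 with siGcn5 and 35.1 and 29.1 with siControl; the difference of the responses was -0.90 (adjusted p = 0.060). Klf4 went from 7.79 and 6.89 to 64.2 and 86.5 (log2 change 3.18, SE 0.15) and Myc from 9.31 and 7.1 to 103 and 129 (log2 change 3.67, SE 0.20), and neither response was called different from that with siControl. For all 4 factors and for Kat2a itself, replicate 2 of the siGcn5 libraries with dox was higher than replicate 1. Summed over the 4 factors, RPKM with dox was 318.5 and 440.6 with siGcn5 and 613.3 and 527.1 with siControl.

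**Figure D1:**
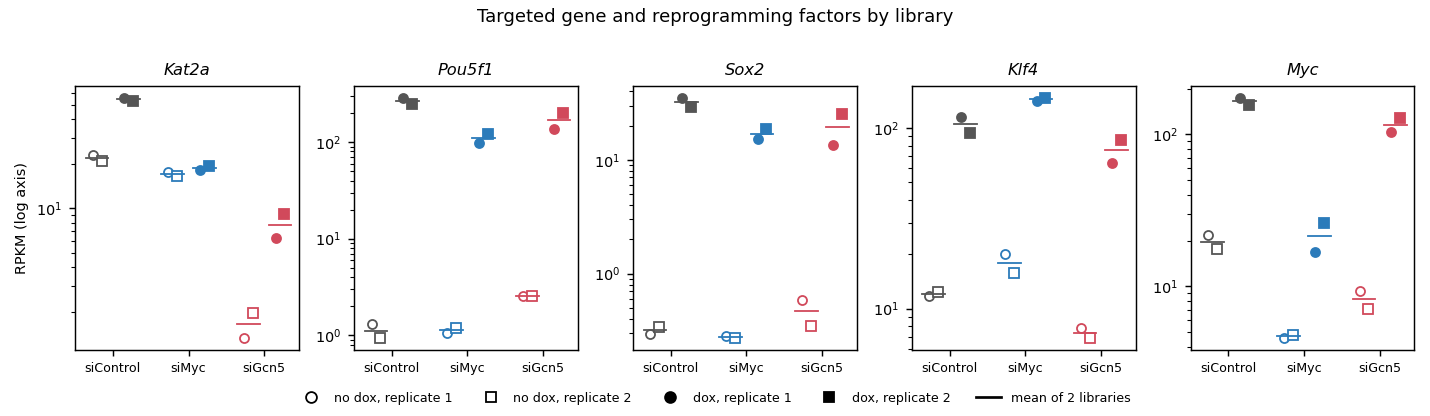
RPKM (log axis) of Kat2a and of the reprogramming factors Pou5f1, Sox2, Klf4 and Myc in each of the 12 libraries, grouped by siRNA and dox; each point is 1 library. Kat2a is lower in the 4 siGcn5 libraries than in the siControl libraries, and the 4 factors are higher with dox under each siRNA.

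Across the genes tested, 4742 (36%) rose and 2951 (22.4%) fell with dox in the siGcn5 libraries. The median response of all genes tested was 0.075 on the log2 scale. Without replicate 2 of the siGcn5 libraries with dox, 1867 genes fell. The same comparison in siControl cells gave 6075 rises (46.1%) and 3676 falls (27.9%), and in siMyc cells 3804 rises (28.9%) and 2095 falls (15.9%). These 3 comparisons share no library. Of the siGcn5 rises, 4290 were also rises with siControl, 90.5% of the siGcn5 list and 70.6% of the siControl list; of the falls, 2363 were shared, 80.1% and 64.3%. Only 62 genes rose with siGcn5 and fell with siControl, and 54 did the reverse. With siMyc, 2289 rises were shared, 48.3% of the siGcn5 and 60.2% of the siMyc list, and 1326 falls, 44.9% and 63.3%. Across genes, which are not independent replicates and come from libraries that differ in depth, Pearson's r between the responses was 0.872 for siGcn5 with siControl and 0.672 for siGcn5 with siMyc.

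Tested directly, the siGcn5 response was higher than the siControl response for 1500 genes (11.4%) and lower for 1909 (14.5%). These counts rest on single libraries: without 1 of the siControl libraries without dox, siControl replicate 2 with dox or siGcn5 replicate 1 without dox, between 782 and 946 genes were higher and between 827 and 987 lower, and without siGcn5 replicate 1 with dox 1192 were lower. Compared with the siMyc response, 2239 genes (17%) responded higher and 2370 (18%) lower. Without siMyc replicate 1 with dox, 1469 were higher. Both siGcn5 libraries with dox moved in the direction of siControl cells, replicate 2 further than replicate 1. Genes that rose with siControl stood at a median of 0.38 above the siGcn5 mean without dox in replicate 1 and 0.46 in replicate 2, and genes that fell with siControl at -0.29 and -0.46.

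**Figure D2:**
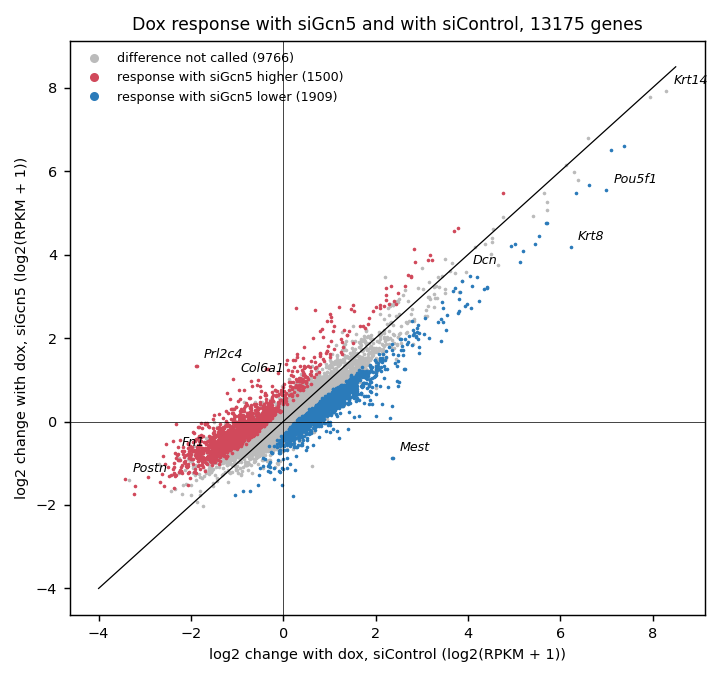
Dox response (difference of mean log2(RPKM + 1)) of each of the 13175 genes tested in siControl cells (horizontal axis) and siGcn5 cells (vertical axis), coloured by the test of the difference between them. Most points lie along a line, and labelled genes such as Mest and Col6a1 lie in the quadrants of opposite sign.

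The largest rises in Gcn5-depleted cells were those of keratin and cornified-envelope genes, which are silent in fibroblasts. Krt14, the basal keratin of stratified epithelia, went from 0.68 and 0.363 to 341 and 393 RPKM (log2 change 7.92, SE 0.12, adjusted p = 5.7e-11). Krt16, a keratin of wounded epidermis, went from 0.0722 and 0.0222 to 217 and 241, and Krt17 from 0.246 and 0.0383 to 118 and 131. Krt6a, also wound-induced, was listed at 0 in both libraries without dox and at 46.2 and 62.6 with dox. The groups were far apart for each of these genes, and Krt14 and Krt16 reached like levels with siControl, 357 and 311 for Krt14 and 272 and 241 for Krt16. Of the 7 basal and wound keratins 6 passed the filter, each with an RPKM under 1 in every library without dox, and of 20 epidermal differentiation genes 17 passed, 12 of them under 1 in every library without dox. Such genes passed only through libraries with dox, where they are high, so a count of their rises is set by the filter and is not given. Krtdap, a secreted keratinocyte differentiation factor, reached 85 and 119 with siGcn5 and 170 and 185 with siControl, from under 1 in each library without dox; the difference of the responses was -0.77 (SE 0.20, adjusted p = 0.019), and the call was lost, with an adjusted p of up to 0.070, without siControl replicate 1 without dox, siControl replicate 2 with dox or siGcn5 replicate 1 without dox.

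Of 22 epithelial adhesion genes 16 passed the filter, 8 of them only through libraries with dox, so their rises are not counted either. The siGcn5 response was called higher than that of siControl for 2 of the 16 and lower for 6 (11.4% and 14.5% of all genes); the second count was as low as 3 without siControl replicate 2 (without or with dox) or siGcn5 replicate 1 (without or with dox). Cdh1, the E-cadherin of adherens junctions, went from 0.0146 and 0.0236 to 15.9 and 19.1 RPKM (log2 change 4.18, SE 0.10). It reached 18.3 and 15.7 with siControl and only 4.97 and 5.12 with siMyc, and the siGcn5 response was 1.61 above that of siMyc (SE 0.14, adjusted p = 3.5e-05). Dsp, the desmosomal plaque protein desmoplakin, went from 2.41 and 2.02 to 33.3 and 36.7. St14, the membrane protease matriptase, went from 1.88 and 1.21 to 13.3 and 15.4 with siGcn5 and from 0.477 and 0.323 to 19.2 and 17.1 with siControl, and the difference of the responses was -1.17 (SE 0.20, adjusted p = 0.0048). F11r, the tight-junction molecule JAM-A, behaved otherwise. It stood at 35.7 and 26.6 without dox and 34.4 and 33.6 with dox, so the groups overlapped (adjusted p = 0.40), while with siControl it went from 7 and 6.69 to 23.2 and 23.7. The difference was -1.50 (SE 0.19, adjusted p = 0.0022), and the siGcn5 libraries started higher and ended higher.

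Among the keratins of simple epithelia, Krt8 and Krt18 stood higher in both siGcn5 libraries without dox than in both siControl libraries without dox, and Krt20 overlapped. Krt8 stood at 4.41 and 4.51 without dox and 87.7 and 110 with dox, against 0.695 and 0.653 without dox and 132 and 118 with dox in siControl cells. Its response differed from that of siControl by -2.04 (SE 0.15, adjusted p = 1.7e-04), with a rise in both. Krt18, the partner of Krt8 in filaments, fell with siGcn5 from 36.7 and 31.6 to 14.1 and 11.2 (log2 change -1.37, SE 0.14, adjusted p = 2.3e-05). With siControl it stood at 5.73 and 6.74 without dox and 5.96 and 4.63 with dox, and the difference of the responses was -1.16 (adjusted p = 0.0047). Krt20, an intestinal and urothelial keratin, moved the other way: it rose from 4.1 and 4.68 to 11.9 and 11.7 with siGcn5 and went from 4.55 and 4.03 to 3.28 and 3.07 with siControl, a difference of 1.59 (SE 0.12, adjusted p = 2.1e-04).

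Among epithelial transcription factors, 6 of 16 passed the filter, 4 of them only through libraries with dox. Grhl3, which drives epidermal barrier genes, went from 0.528 and 0.55 to 8.43 and 9.74, and its response differed from that of siControl by -0.76 (SE 0.12, adjusted p = 0.0041). Ovol1, a repressor of mesenchymal genes, reached 2.08 and 2.02. Genes of the pluripotency network were at or near 0: 20 of 24 did not pass the filter, and of those none exceeded an RPKM of 1.02 in any library. Of the other 4, Fgf4, a growth factor of ES cells, was listed at 0 without dox and at 0.572 and 0.738 with dox, and Alpl, alkaline phosphatase, rose from 1.02 and 1.02 to 1.78 and 1.89. Dnmt3b, a de novo DNA methyltransferase, rose from 0.439 and 0.53 to 0.758 and 1.25, and Tbx3, a T-box factor that fibroblasts also express, fell from 6.41 and 4.65 to 3.76 and 2.86. The Dnmt3b call was lost without siGcn5 replicate 2 with dox (adjusted p = 0.052) and after quantile normalization (adjusted p = 0.570), and the Tbx3 call without siGcn5 replicate 1 without dox (adjusted p = 0.055) or replicate 2 with dox (adjusted p = 0.053). Nanog, a core factor of the network that did not pass the filter, stood at 1.02 and 0.726 without dox and 0.494 and 0.351 with dox.

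Enzymes of nucleotide and one-carbon synthesis are textbook Myc targets, and the promoters of a pair of them are shown here with the E-box hexamer in capitals, because this list responded differently with siGcn5 and with siMyc. Both are the 250 bases before the RefSeq start on GRCm38.p6, written 5′ to 3′ on the sense strand, and both were chosen after their values were seen. Impdh2, the rate-limiting enzyme of guanine nucleotide synthesis, lies at chr9:108560186-108560435 on the plus strand. Atic, which closes the purine ring, lies at chr1:71556906-71557155 on the plus strand.
Impdh2: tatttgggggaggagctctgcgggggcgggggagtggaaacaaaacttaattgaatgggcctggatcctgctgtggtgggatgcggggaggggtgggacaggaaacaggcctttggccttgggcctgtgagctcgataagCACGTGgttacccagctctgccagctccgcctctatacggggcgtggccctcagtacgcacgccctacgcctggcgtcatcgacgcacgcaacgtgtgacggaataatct
Atic: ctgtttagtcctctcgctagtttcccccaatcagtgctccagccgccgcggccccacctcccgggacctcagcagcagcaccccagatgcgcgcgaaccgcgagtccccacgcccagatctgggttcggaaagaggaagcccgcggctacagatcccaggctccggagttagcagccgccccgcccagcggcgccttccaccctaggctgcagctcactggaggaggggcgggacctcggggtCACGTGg
CACGTG, which reads the same on both strands, was found in 6 of 33 promoters (18.2%) of 29 genes of the nucleotide and one-carbon list and in 6.02% of all 32851 promoters of this length in the table. In the ribosome biogenesis list it was found in 2 of 42 promoters (4.76%), and in 21.4% where the window also took in the 50 bases after the start, with 7.15% of all promoters. A match is a description of the letters, not of binding, and its part in the responses was not tested.

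The nucleotide and one-carbon genes rose together: 30 of 33 rose with siGcn5 (median 1.00), against 36% of all genes. With siControl 32 rose (median 1.33; 46.1% of all genes) and with siMyc 9 (median 0.20; 28.9% of all genes). Impdh2 went from 99.9 and 102 to 203 and 233 RPKM (log2 change 1.10, SE 0.08, adjusted p = 3.7e-06), and from 76.1 and 74 to 75.8 and 86.5 with siMyc. Its siGcn5 response was 0.99 above that of siMyc (SE 0.12, adjusted p = 2.3e-04). Atic went from 70.7 and 69.8 to 138 and 145 (log2 change 1.00, SE 0.09). Ppat, the first committed enzyme of purine synthesis, went from 3.02 and 3.24 to 13.7 and 20.9, and Umps, which completes the pyrimidine ring pathway, from 9.02 and 9.12 to 30.8 and 38.3. Gldc, the glycine-cleaving decarboxylase, rose from under 1 to 6.81 and 7.84. For 21 of the 33 genes the siGcn5 response was higher than that of siMyc, where 17% of all genes were. Odc1, the first enzyme of polyamine synthesis, went from 142 and 135 to 298 and 323 with siGcn5 and from 97.7 and 91.1 to 335 and 344 with siControl, and the responses differed by -0.68 (SE 0.13, adjusted p = 0.0064).

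Every one of the 44 ribosome biogenesis genes tested rose in the siGcn5 libraries (median 1.01), as did all 44 with siControl (median 1.52) and 31 with siMyc (median 0.40). Among all genes, 36% rose with siGcn5, 46.1% with siControl and 28.9% with siMyc. Lyar, a nucleolar regulator of rRNA processing, went from 13 and 15.5 to 47.1 and 72.5 RPKM (log2 change 1.97, SE 0.21, adjusted p = 4.0e-05). Dkc1, the pseudouridine synthase dyskerin, went from 12.4 and 13.9 to 38.1 and 50 and its partner Nop10 from 28.4 and 32.3 to 90.4 and 119. All libraries with dox were above all libraries without it for these genes, with replicate 2 above replicate 1. For 30 of the 44 the siGcn5 response was higher than that of siMyc (17% of all genes), and for 23 it was lower than that of siControl (14.5% of all genes). That second count was between 6 and 15 without any 1 of 6 libraries: the siControl and siGcn5 libraries without dox, siControl replicate 2 with dox and siGcn5 replicate 1 with dox. It was 13 after median-ratio scaling. Of 13 RNA polymerase I genes, 11 rose. The subunit Polr1b went from 5.15 and 4.9 to 18.5 and 23.5 (log2 change 1.86, SE 0.19) and Polr1e from 7.64 and 7.16 to 27 and 31. For 9 of the 13 the response was above that of siMyc.

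Of 65 ribosomal protein genes, 34 rose with siGcn5 (median 0.24; 36% of all genes), 56 with siControl (median 0.43; 46.1%) and 3 with siMyc (median 0.11; 28.9%). The siGcn5 count moved by over 1.5 times without siGcn5 replicate 1 without dox or siGcn5 replicate 2 with dox, and was 11 after median-ratio scaling. Rpl3, a protein of the large subunit, stood at 316 and 413 without dox and 556 and 824 with dox, below the 1417 and 1490 reached with siControl. Ribosomal protein genes have many near-identical pseudogene copies, so their values are uncertain.

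**Figure D3:**
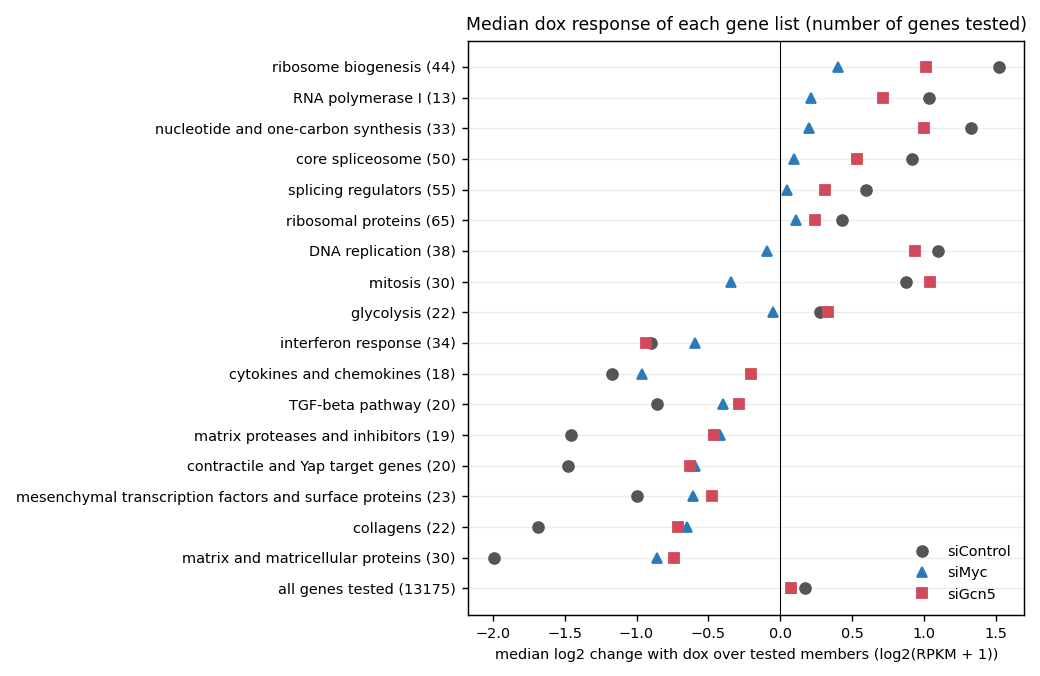
Median dox response (difference of mean log2(RPKM + 1)) of the tested members of the gene lists in siControl, siMyc and siGcn5 cells. Growth and splicing lists lie higher with siControl and siGcn5 than with siMyc, and collagens, matrix and contractile genes lie lowest with siControl.

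Splicing genes rose in Gcn5-depleted cells. Of 50 core spliceosome genes 45 rose (median 0.53; 36% of all genes), against 49 with siControl (median 0.92; 46.1%) and 6 with siMyc (median 0.09; 28.9%). Snrpa1, a U2 snRNP protein, went from 35.9 and 35.4 to 78.7 and 87.2 RPKM (log2 change 1.20, SE 0.08, adjusted p = 1.3e-06), and Snrpg, one of the Sm ring proteins, from 142 and 154 to 257 and 342. With siMyc Snrpa1 went from 47.8 and 42.9 to 44.4 and 49.2, with overlapping groups, and the siGcn5 response was 1.15 higher (SE 0.11, adjusted p = 6.3e-05). For 28 of the 50 the siGcn5 response was higher than that of siMyc (17% of all genes) and for 20 lower than that of siControl (14.5%). The latter count was 10 after median-ratio scaling, 8 to 10 without any 1 of 5 libraries (both siControl libraries without dox, siControl replicate 2 with dox and siGcn5 replicate 1 without or with dox) and 34 without siGcn5 replicate 2 with dox.

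Of 55 splicing regulators, 34 rose and 5 fell (median 0.31); without siGcn5 replicate 1 or 2 without dox or siGcn5 replicate 2 with dox, as few as 2 fell. Among all genes, 36% rose and 22.4% fell with siGcn5. Hnrnpa1, a splicing repressor that Myc is known to regulate, went from 138 and 167 to 268 and 328 (log2 change 0.96, SE 0.14), and from 157 and 175 to 139 and 179 with siMyc. Esrp2, the epithelial splicing regulator, went from 2.82 and 2.31 to 17.5 and 18.3 (log2 change 2.41, SE 0.09). Rbm38, an RNA-binding regulator of p21, and Prmt5, which methylates Sm proteins, responded less than with siControl. Rbm38 went from 18.4 and 13 to 29.1 and 34, against 5.86 and 6.55 to 40 and 37.4 with siControl, a difference of -1.49 (SE 0.19, adjusted p = 0.0023). Prmt5 went from 45.4 and 38.4 to 71.5 and 73.9, against 29.4 and 28.2 to 81.2 and 83.4, a difference of -0.70 (SE 0.16, adjusted p = 0.012). In both cases the siGcn5 libraries began higher and ended lower. Sf3a2, a U2 snRNP subunit, differed by -0.84 (SE 0.13, adjusted p = 0.0040), with 58.4 and 60 RPKM with dox and siGcn5 and 75.9 and 68.2 with siControl.

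Cell-cycle genes were low in Gcn5-depleted cells without dox and rose with it. Of 38 DNA replication genes 33 rose (median 0.94; 36% of all genes), 37 with siControl (median 1.09; 46.1%) and with siMyc 0 rose and 2 fell (median -0.09; 28.9% and 15.9%). Mcm5, part of the replicative helicase, went from 4.41 and 5.76 to 14.6 and 28.8 RPKM (log2 change 1.83, SE 0.27, adjusted p = 3.0e-04). With siControl it went from 23.8 and 19.6 to 68.4 and 75.7, so the siGcn5 libraries with dox overlapped the siControl libraries without dox. With siMyc it stood at 18.9 and 13 without dox and 13.9 and 17.7 with dox, overlapping, and the siGcn5 response was 1.83 higher (SE 0.38, adjusted p = 0.0053). Cdca7, a chromatin factor activated by Myc, went from 2.89 and 2.78 to 11.4 and 16.5, and Pold2, a subunit of DNA polymerase delta, from 7.87 and 8.35 to 22.9 and 35.5. For 30 of 38 genes the siGcn5 response was above that of siMyc (17% of all genes). Relative to siControl, the median level of the list in the siGcn5 libraries was -0.98 on the log2 scale without dox and -1.23 with dox. In the siGcn5 libraries, 3 of the 38 genes without dox and 0 with dox were higher in replicate 1 than in replicate 2. These shares were 57.1% and 54.3% among all genes, so the level moved with the replicate number as well as with dox. Relative to siControl without dox, the list median went from -0.998 to -0.32 with dox in libraries numbered 1. In those numbered 2 it went from -0.888 to 0.226.

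All 30 mitosis genes rose with siGcn5 (median 1.04; 36% of all genes), 23 rose with siControl (median 0.88; 46.1%) and 1 with siMyc (median -0.34; 28.9%). The siGcn5 count was 16 without siGcn5 replicate 1 without dox and 15 without siGcn5 replicate 2 with dox. Aurka, the spindle-pole kinase, went from 3.53 and 6.43 to 11.7 and 23.1 (log2 change 1.59, SE 0.29, adjusted p = 0.0011), and with siControl from 20.9 and 20.9 to 50.2 and 56.8. Cdc20, the activator of the anaphase-promoting complex, went from 10.4 and 19.4 to 31 and 58.4. All 30 were lower in replicate 1 than in replicate 2, both without and with dox, so the level moved with the replicate number as well as with dox. The difference from siControl was called for 0 of the 30 by limma (0 at an unadjusted p under 0.05, 0 by voom on recovered reads) and that from siMyc was higher for 29 (17% of all genes). Relative to siControl the list stood at -1.84 without dox and -1.515 with dox.

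Mesenchymal genes fell less in Gcn5-depleted cells than with siControl. The lists were collagens, matrix, mesenchymal factors, contractile genes, TGF-beta genes and proteases. In each, leaving out any 1 library moved the count of higher responses by under 1.5 times. With siMyc the median falls were smaller than with siControl too. They were -0.86 for matrix genes, -0.61 for mesenchymal factors, -0.59 for contractile genes, -0.40 for TGF-beta genes and -0.42 for proteases. The siGcn5 minus siMyc responses had list medians from -0.10 (contractile genes) to 0.17 (proteases). Of 22 collagen genes 15 fell with siGcn5 and 1 rose (median -0.71), against 21 that fell with siControl (median -1.69; 27.9% of all genes) and 14 with siMyc (median -0.65; 15.9% of all genes). The share of all genes that fell with siGcn5 was 22.4%. For 18 of the 22 the siGcn5 response was higher, that is, less negative, than that of siControl, where 11.4% of all genes were. Col1a1, a chain of type I collagen, went from 3334 and 3182 to 1504 and 1217 RPKM (log2 change -1.27, SE 0.13, adjusted p = 2.9e-05). With siControl it went from 4004 and 3705 to 849 and 654, so both siGcn5 libraries with dox were above both siControl libraries with dox. The difference was 1.10 (SE 0.19, adjusted p = 0.0049). Col1a2, the other chain, and Col3a1, of type III collagen, differed by 1.12 and 1.12 (adjusted p = 0.0017 and 0.0038). Col3a1 ended at 83.3 and 64 with siGcn5 and 65.1 and 70 with siControl, where it had begun higher. Col6a3, of type VI collagen, stood at 6.65 and 10.1 without dox and 9.06 and 9.55 with dox under siGcn5, a change not called, and fell from 49.7 and 47.5 to 18 and 15.3 with siControl.

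Of 30 matrix and matricellular genes 23 fell with siGcn5 (median -0.74), 28 with siControl (median -1.99) and 23 with siMyc. Among all genes these shares were 22.4%, 27.9% and 15.9%. For 26 the response was higher with siGcn5 than with siControl (11.4% of all genes), and for 6 higher and 4 lower than with siMyc (17% and 18%). The matrix list stood lower with siGcn5 before dox and higher after it: relative to siControl its median was -0.775 without dox and 0.26 with dox. For collagens these medians were -0.28 and 0.63, for mesenchymal factors -0.39 and 0.26, for proteases -0.28 and 0.18, for contractile genes -0.14 and 0.84 and for TGF-beta genes -0.02 and 0.21. Fn1, fibronectin, went from 1565 and 1583 to 1020 and 849 RPKM (log2 change -0.76, SE 0.10, adjusted p = 1.1e-04), against 1534 and 1503 to 311 and 282 with siControl. The levels without dox were alike and those with dox did not overlap, a difference of 1.59 (SE 0.14, adjusted p = 3.4e-04). Postn, the matricellular protein periostin, went from 133 and 164 to 64.9 and 49.1 with siGcn5 and from 127 and 175 to 12.9 and 13 with siControl, a difference of 2.05 (SE 0.26, adjusted p = 0.0020). Fmod, a collagen-binding proteoglycan, showed the same order, from 18.1 and 21.9 to 8.32 and 6.44 and from 17.3 and 20.2 to 1.81 and 1.38 (difference 1.60, adjusted p = 0.0026). Dcn, the small proteoglycan decorin, was the matrix gene that rose, from 3.77 and 4.46 to 56.1 and 65.2, and it rose with siControl too, to 100.17 and 103.

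Of 23 mesenchymal transcription factors and surface proteins 17 fell and 3 rose with siGcn5 (median -0.48; 22.4% and 36% of all genes), and 20 fell with siControl (median -0.997; 27.9%). For 13 the response was higher than with siControl and for 1 lower (11.4% and 14.5% of all genes). Snai2, the E-cadherin repressor Slug, went from 11.3 and 13.5 to 5.52 and 3.99 (log2 change -1.23, SE 0.15), against 27.1 and 28 to 5.56 and 4.97 with siControl; the levels with dox overlapped and those without did not. Pdgfrb, the platelet-derived growth factor receptor of stromal cells, went from 69.1 and 67.6 to 31.9 and 25 (log2 change -1.25, SE 0.11) and from 61.4 and 62.5 to 9.99 and 8.5. Its levels without dox were close and its levels with dox were apart, a difference of 1.38 (SE 0.15, adjusted p = 0.0012). Cdh11, the mesenchymal cadherin, differed by 0.82 (adjusted p = 0.0066). Thy1, a fibroblast surface glycoprotein, was already low in Gcn5-depleted cells at 75.7 and 99.98, against 225 and 283 with siControl, and with dox stood at 59.3 and 55 with siGcn5 and 64.2 and 59 with siControl; its fall with siGcn5 was not called without siGcn5 replicate 2 without dox (adjusted p = 0.051).

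**Figure D4:**
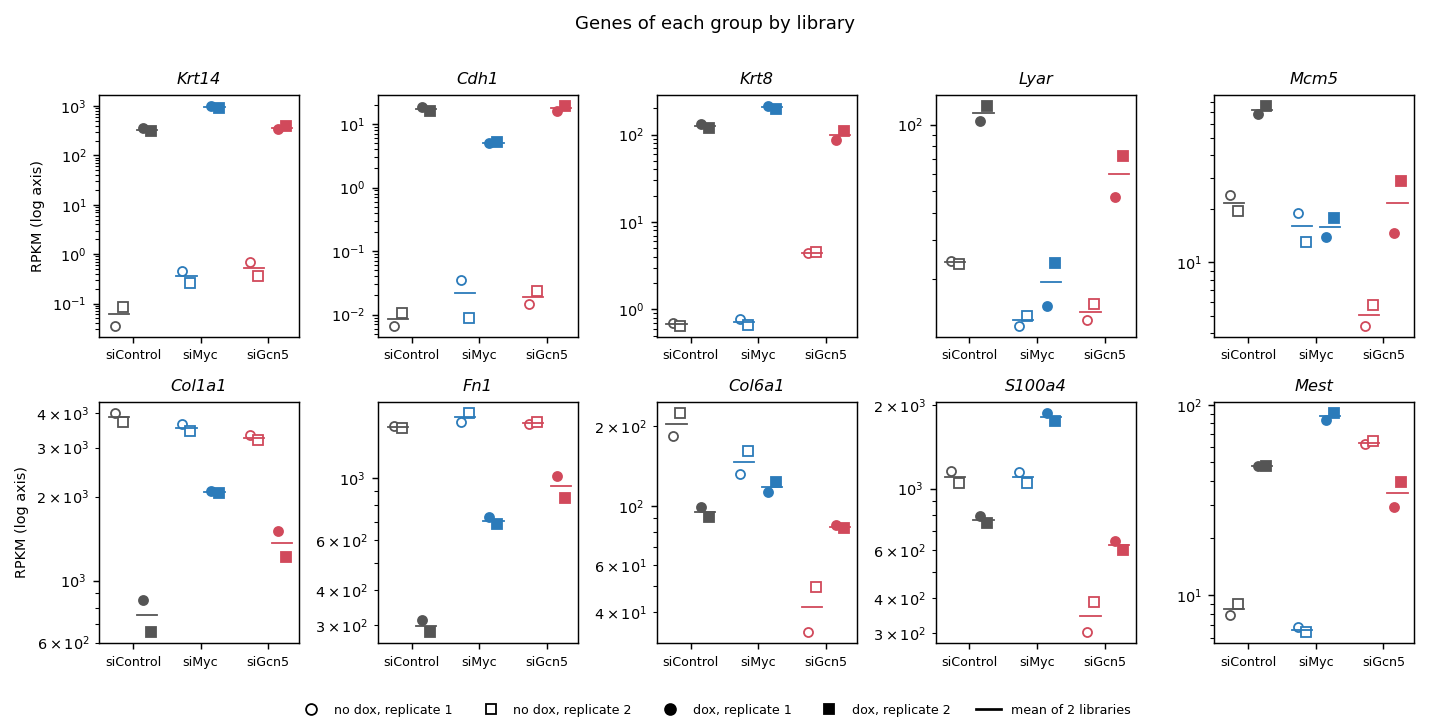
RPKM (log axis) of 10 genes in each of the 12 libraries, grouped by siRNA and dox; each point is 1 library. Krt14 and Cdh1 reach like levels with siControl and siGcn5, Fn1 and Col1a1 fall further with siControl than with siGcn5, and Col6a1, S100a4 and Mest move in opposite directions with siControl and siGcn5.

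Of 20 contractile and Yap target genes 15 fell with siGcn5 (median -0.625; 22.4% of all genes), against 19 with siControl (median -1.47; 27.9%). For 17 the response was higher with siGcn5 than with siControl (11.4% of all genes). Acta2, smooth-muscle actin, went from 5359 and 4909 to 3159 and 2399 RPKM (log2 change -0.90, SE 0.15, adjusted p = 7.4e-04) and from 4184 and 4122 to 1223 and 942 with siControl, a difference of 1.05 (SE 0.22, adjusted p = 0.0090). Ctgf, a Yap target, stood at 464 and 479 without dox and 464 and 327 with dox under siGcn5, not called, and fell from 604 and 511 to 229 and 161 with siControl. Wisp2, a secreted relative of Ctgf, went from 54.6 and 54.1 to 16.5 and 14.6 (log2 change -1.74, SE 0.07) and from 60.9 and 64.1 to 5.76 and 5.77, a difference of 1.49 (SE 0.10, adjusted p = 1.5e-04).

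Of 20 TGF-beta pathway genes 8 fell with siGcn5 (median -0.29; 22.4% of all genes) and 15 with siControl (median -0.86; 27.9%). Among the ligands, Tgfb3 went from 76.8 and 76.8 to 58.8 and 39.6 and from 73.5 and 68 to 20.6 and 16.8 with siControl, a difference of 1.21 (SE 0.23, adjusted p = 0.0064). Inhba, which encodes the activin A subunit, differed by 1.46 (adjusted p = 0.0048): it began at 67 and 74.2 with siGcn5 and 197 and 150 with siControl, and with dox the pairs overlapped, at 56.1 and 44.2 with siGcn5 and 50 and 38 with siControl. Of 19 matrix proteases and inhibitors 13 fell and 3 rose with siGcn5 (median -0.46; 22.4% and 36% of all genes), against 18 falls with siControl (median -1.46; 27.9%). For 13 the response was higher than with siControl (11.4% of all genes). Plau, the urokinase activator of plasminogen, stood at 65.1 and 67.1 without dox and 57.2 and 47 with dox under siGcn5 and fell from 70.3 and 70.9 to 22.6 and 18.7 with siControl, a difference of 1.39 (SE 0.16, adjusted p = 0.0016). Mmp13, a collagenase that was higher in Gcn5-depleted cells before dox, fell from 40.6 and 38.4 to 10.5 and 8.72 (log2 change -1.94, SE 0.13). Timp1, a protease inhibitor, rose from 217 and 282 to 384 and 358 (log2 change 0.58, SE 0.11) and fell with siControl from 583 and 607 to 436 and 399.

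Of 18 cytokine and chemokine genes 5 fell and 3 rose with siGcn5 (median -0.20; 6 rose without siGcn5 replicate 2 with dox and 1 after quantile normalization), against 13 falls with siControl (median -1.17) and 12 with siMyc (median -0.96). For 8 of them the response was higher than with siControl, a count of 3 to 5 without siControl replicate 2 without dox, siControl replicate 2 with dox or siGcn5 replicate 1 without dox, and for 8 higher than with siMyc. Among all genes, 22.4% fell and 36% rose with siGcn5, so the falls were near that share and the rises below it. The filter was passed by 1 of the 18 only through libraries with dox. With siControl 27.9% of all genes fell and with siMyc 15.9%. Responses higher than with siControl and siMyc were 11.4% and 17% of all genes. Ccl2, a monocyte attractant, stood at 73.2 and 56.8 without dox and 85.2 and 53.7 with dox under siGcn5, overlapping, and fell from 66.4 and 57.9 to 23.6 and 18.8 with siControl. Cxcl12, a stromal chemokine, fell from 25.3 and 38.7 to 11.8 and 12.9 (log2 change -1.28, SE 0.21).

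Some genes moved in opposite directions under siGcn5 and siControl. Col6a1, of type VI collagen, was the collagen that rose: 33.6 and 49.8 to 84.8 and 82.7 RPKM (log2 change 1.01, SE 0.17, adjusted p = 5.4e-04), against 184 and 225 to 99 and 91.3 with siControl. The pairs were far apart without dox and close with dox, and the difference of the responses was 2.10 (SE 0.23, adjusted p = 0.0014). S100a4, a calcium-binding protein of motile fibroblasts, went from 302 and 388 to 647 and 599 with siGcn5 and from 1159 and 1046 to 793 and 749 with siControl. Its siGcn5 libraries without dox were the lowest, and its responses differed by 1.38 (SE 0.16, adjusted p = 0.0017). Mest, an imprinted gene of mesoderm, showed the reverse. It fell from 62 and 64.4 to 29.1 and 39.5 with siGcn5 (log2 change -0.88, SE 0.12, adjusted p = 1.9e-04) and rose from 7.93 and 9.06 to 48.1 and 47.9 with siControl and from 6.8 and 6.42 to 83.6 and 91.2 with siMyc. The differences were -3.25 from siControl (SE 0.17, adjusted p = 1.3e-05) and -4.41 from siMyc (SE 0.17, adjusted p = 2.3e-07). Mir335, whose hairpin lies within Mest, gave nearly the same values, and the reads of the pair cannot be told apart. Prl2c3, a proliferin that is nearly identical to Prl2c4, rose from 8.35 and 5.83 to 28.2 and 12.9 and fell from 7.3 and 5.99 to 1.38 and 0.82 with siControl, a difference of 3.21 (SE 0.50, adjusted p = 0.0038). Il11, a cytokine induced by TGF-beta, went from 7.35 and 9.52 to 14.6 and 10.9 and from 13.2 and 12.7 to 6.5 and 4.32, a difference of 1.68 (adjusted p = 0.0043). The rises of Prl2c3 and Il11 with siGcn5 were not called without siGcn5 replicate 1 with dox, nor without replicate 2 (Prl2c3) or replicate 1 (Il11) without dox, with adjusted p of up to 0.061 and 0.21.

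Among other genes with large falls, Ptx3 and Rspo3 began higher with siGcn5 than with siControl, and H19 began lower. Ptx3, a secreted pattern-recognition protein, fell from 105 and 106 to 32.4 and 29 (log2 change -1.75, SE 0.15, adjusted p = 7.0e-06), with 19.4 and 21.7 in siControl cells without dox. Igfbp3, a binding protein of insulin-like growth factors, fell from 85.6 and 70.3 to 27.9 and 24. Rspo3, a Wnt enhancer, fell from 11.5 and 10.4 to 3.1 and 2.5, with 2.54 and 2.96 in siControl cells without dox. H19, an imprinted noncoding RNA, began low with siGcn5 at 57.5 and 69, against 306 and 341 with siControl, and fell to 19.2 and 19.4; the responses were -1.66 with siGcn5 and -1.80 with siControl.

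Interferon-stimulated genes stood higher in the siGcn5 than in the siControl libraries and fell with dox, with a large spread between replicates. The promoters of a pair of them, 250 bases before the RefSeq start on GRCm38.p6, 5′ to 3′ on the sense strand, are shown with the motif GAAANNGAAA, the core of the interferon-stimulated response element, in capitals, because a larger share of the list's promoters than of all promoters holds it. Gbp2, an interferon-induced GTPase, lies at chr3:142620413-142620662 on the plus strand, and Isg15, a ubiquitin-like modifier, at chr4:156200819-156201068 on the minus strand. Both were chosen after their values were seen, and overlapping matches are marked as 1 stretch, which in Isg15 holds 3 matches. The Gbp2 match is on the other strand, so its capitals are the reverse complement of the motif.
Gbp2: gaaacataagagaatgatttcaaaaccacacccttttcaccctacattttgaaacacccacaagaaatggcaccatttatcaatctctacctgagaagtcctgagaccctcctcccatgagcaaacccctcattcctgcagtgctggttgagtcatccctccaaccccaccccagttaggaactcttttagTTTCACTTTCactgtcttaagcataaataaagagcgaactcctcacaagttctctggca
Isg15: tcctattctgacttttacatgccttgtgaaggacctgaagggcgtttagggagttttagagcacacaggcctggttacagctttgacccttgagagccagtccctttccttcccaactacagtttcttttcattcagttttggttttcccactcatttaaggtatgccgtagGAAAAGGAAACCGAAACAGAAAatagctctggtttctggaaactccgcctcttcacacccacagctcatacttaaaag
On either strand the motif was found in 11 of 30 promoters of 26 genes of the interferon list (36.7%) and in 2.98% of all 32851 promoters of this length. Of the 34 genes tested, 21 fell with siGcn5 (median -0.94) and 19 with siControl (median -0.90), against 22.4% and 27.9% of all genes. In fits that do not pair libraries, 5 members fell without siGcn5 replicate 1 without dox and 5 without siGcn5 replicate 2 with dox. Among libraries numbered 1 the list median relative to siControl without dox went from 1.81 to 1.06 with dox, and among those numbered 2 from 1.00 to -0.02. Gbp2 stood at 20.4 and 13.7 without dox and 7.53 and 4.02 with dox (log2 change -1.44, SE 0.23, adjusted p = 4.8e-04). The Isg15 call was lost without the same libraries (adjusted p of up to 0.26): Isg15 stood at 149 and 74.8 without dox and 73.3 and 21 with dox, so that replicate 1 with dox lay just below replicate 2 without it (log2 change -1.40, SE 0.48, adjusted p = 0.029). All 34 genes were higher in replicate 1 than in replicate 2, both without and with dox, where 57.1% and 54.3% of all genes were. Relative to siControl the list stood at a median of 1.405 without dox and 1.56 with dox. The difference of the responses from siControl was called for 0 of the 34 by limma (5 at an unadjusted p under 0.05, 0 by voom on recovered reads).

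**Figure D5:**
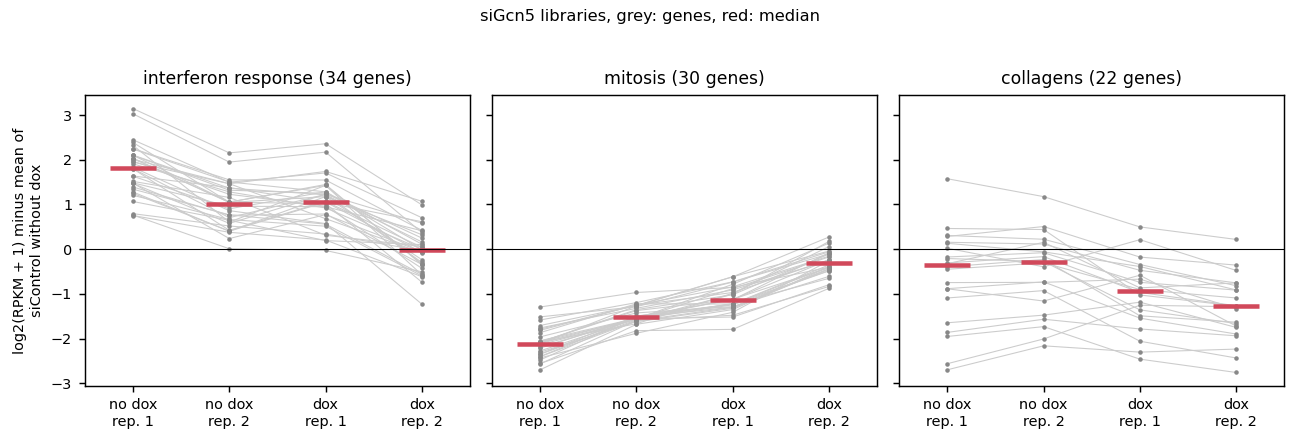
Level of each tested gene of the interferon, mitosis and collagen lists in the 4 siGcn5 libraries, as log2(RPKM + 1) minus the mean of the siControl libraries without dox; thin lines join 1 gene across libraries and red bars are list medians. Interferon genes are higher and mitosis genes lower in replicate 1 than in replicate 2, both without and with dox, while collagens fall from the pair without dox to the pair with dox.

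A further set of genes responded with siGcn5 and not, or much less, with siMyc. Car12, a membrane carbonic anhydrase, went from 1.32 and 1.42 to 25.8 and 30.2 RPKM (log2 change 3.61, SE 0.25) and from 0.401 and 0.668 to 0.981 and 2.95 with siMyc, a difference of 2.74 (SE 0.35, adjusted p = 3.6e-04). Ces2g, a carboxylesterase, went from 0.229 and 0.13 to 10.7 and 9.83 with siGcn5 and reached 1.14 and 1.54 with siMyc (difference 2.27, SE 0.14). Tdh, threonine dehydrogenase, an enzyme of mouse ES cell metabolism, was at or near 0 without dox and reached 5.74 and 6.1 with siGcn5, 3.25 and 3.35 with siControl and 0.251 and 0.271 with siMyc. In the other direction, Notum, a secreted Wnt inhibitor, reached only 0.853 and 0.594 with siGcn5 and 23 and 25.6 with siMyc, a difference of -3.86 (SE 0.14, adjusted p = 1.9e-07). Cdsn, corneodesmosin, stood with dox at 2.79 and 3.18 with siGcn5 and 77 and 71.2 with siMyc (difference -4.09, SE 0.36, adjusted p = 3.5e-05). The Cdsn response with siGcn5, 0.56, was not called by limma (adjusted p = 0.084). Edn2, endothelin 2, rose to 11.7 and 10.4 with siGcn5, close to the 12 and 8.06 of siControl and far below the 95.8 and 98.8 of siMyc.

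Genes of the Gcn5 complexes moved in both directions. Of 22 SAGA genes 9 rose and 3 fell with siGcn5 (median 0.04), against 36% and 22.4% of all genes. The rises were near that share. Kat2a itself is among the 9 and its paralog Kat2b among the 3. With siControl 12 rose (median 0.23), against 46.1% of all genes. After quantile normalization 5 fell with siGcn5. Taf5l, a scaffold subunit, went from 10.9 and 10.2 to 18.1 and 22 RPKM (log2 change 0.86, SE 0.09, adjusted p = 3.4e-05). Usp22, the deubiquitinase of SAGA, stood at 29.7 and 27.5 without dox and 26.6 and 30.7 with dox, overlapping, and went from 22.7 and 22.5 to 33.3 and 33.2 with siControl, a difference of -0.54 (SE 0.11, adjusted p = 0.0081). Of the 7 ATAC genes 3 rose with siGcn5 and 7 with siControl, against 36% and 46.1% of all genes. For 4 the response was lower than with siControl, against 14.5% of all genes. This last count was 0 to 2 without any 1 of 6 libraries (the siControl and siGcn5 libraries without dox, siControl replicate 2 with dox and siGcn5 replicate 1 with dox), 2 after median-ratio scaling and 1 after quantile normalization. The ATAC adaptor Tada2a went from 10.5 and 10.7 to 14.7 and 17.8, and from 9.53 and 9.91 to 20.8 and 21 with siControl. Of 14 other acetyltransferase and deacetylase genes 4 rose and 2 fell with siGcn5, both below the shares of all genes (36% and 22.4%). After median-ratio scaling 2 rose. Of the 11 genes of the Myc network tested, 4 rose and 2 fell with siGcn5, near the 36% and 22.4% of all genes. In both lists the count of falls was smaller when siGcn5 replicate 2 with dox, or either siGcn5 replicate without dox, was left out. Mxi1, a Max partner that opposes Myc, went from 0.762 and 1.14 to 4.69 and 6.26 (log2 change 1.73, SE 0.14), and Max, the obligate partner of Myc, from 43 and 42 to 60.4 and 67.9.

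Markers of other cell types were checked. Of 8 endothelial markers 3 passed the filter, with a summed RPKM of 3.42 and 3.60 in the siGcn5 libraries without dox and 12.2 and 12.4 with dox; Pecam1 and Cdh5 did not pass. The rise of this sum was that of Tek, the angiopoietin receptor, from 0.22 and 0.234 to 8.03 and 9.45. Tek was under 1 in every library without dox, so it passed only through libraries with dox. Emcn, another of the 3, was called as a fall, and that call rested on single libraries. Of the blood markers 5 passed, with sums of 5.88 and 6.76 without dox and 9.68 and 11.4 with dox, and Ptprc and Csf1r did not pass. Among the 5, 4 rose and 1 fell (36% and 22.4% of all genes), with the same counts under siControl. However, 2 of the 5 passed only through libraries with dox. Itgam went from 0.0276 and 0.0099 to 1.93 and 1.99, against 0.273 and 0.347 with dox under siControl. Cd68 went from 1.71 and 2.12 to 3.23 and 3.97. Of 8 skeletal muscle markers 2 passed, with neither called, and Myod1 and Myog did not pass. Of 8 neural markers 4 passed, with sums of 80.7 and 78.1 without dox and 246.6 and 301.4 with dox, and both Tubb3, a neuronal tubulin, from 14.9 and 13.9 to 107 and 119, and Stmn2, a microtubule regulator of neurons, from 28.2 and 34.2 to 116 and 161, rose, while Mtap2, a dendritic microtubule protein, fell from 28.6 and 17.7 to 12.9 and 8.78; Pax6 and Dcx did not pass. Of 6 adipocyte markers 4 passed, with sums of 38.8 and 48.7 without dox and 29.3 and 28.7 with dox, and Adipoq and Plin1 did not pass. The part of other cells in the responses was not tested.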

How the data were processed

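RNA-seq of 12 libraries (3 siRNAs, without and with dox, 2 libraries each) was used. The authors deposited RPKM values per gene symbol. Per the submitters' processing notes, the build was mm9 and the tools named are affy, edgeR, HTSeq, Bowtie 0.12.8 and TopHat2 2.0.9. Annotation, strand setting, filters and which tool made the RPKM: not given in the sources used here. Whole reads could be recovered from the RPKM steps for 20788 of 20788 genes with a value, within 0.05 of a read, and gave the depths. Groups came from the labels, and 0 columns went unused. Genes with RPKM of at least 1 in at least 2 libraries (13175) were tested with limma 3.58.1 (R 4.3.3, trended empirical Bayes) on log2(RPKM + 1) in 1 fit over all 6 groups (6 residual and 4.17 prior degrees of freedom), with Benjamini-Hochberg adjusted p under 0.05. The method was tested on simulated data. Members and gene lists (39 lists) were chosen with earlier results of these data known. Genes to name came from a rule: Kat2a and the 4 factors; the 12 largest called rises and falls with siGcn5 whose groups do not overlap and whose higher mean is at least 2 RPKM; the 8 largest called differences each way per comparison; and from each list up to 4 called members with the largest response and up to 3 with the largest difference. A selection of these is printed, and other genes named were chosen after their values were seen. Alternatives were another pseudocount (0.1), other filters, scalings, voom on recovered reads, a replicate block, fits on the compared groups alone and leaving out each library. Promoters came from RefSeq (GRCm38.p6) by gene symbol; with the values on mm9, no coordinates were exchanged.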

Additional observations from a re-analysis of the deposited data

Results flagged for a closer look

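The size of the dox response differed between siGcn5 and the other siRNAs by a test of the difference itself for 1500 genes higher and 1909 lower than with siControl, and for 2239 higher and 2370 lower than with siMyc. Among the genes named in the text, the difference of log2(RPKM + 1) responses, siGcn5 minus siControl, was called for the following. It was positive for Prl2c3 (3.21), Spp1 (2.25), Col6a1 (2.10), Postn (2.05), Il11 (1.68), Fmod (1.60), Fn1 (1.59), Krt20 (1.59), Wisp2 (1.49), Inhba (1.46), Plau (1.39), Pdgfrb (1.38), S100a4 (1.38), Eno3 (1.27), Ddit3 (1.24), Tgfb3 (1.21), Col1a2 (1.12), Col3a1 (1.12), Col1a1 (1.10), Acta2 (1.05), Cdh11 (0.82) and Fosl1 (0.72). It was negative for Mest (-3.25), Krt8 (-2.04), F11r (-1.50), Rbm38 (-1.49), Pou5f1 (-1.44), St14 (-1.17), Krt18 (-1.16), Sf3a2 (-0.84), Krtdap (-0.77), Grhl3 (-0.76), Prmt5 (-0.70), Odc1 (-0.68) and Usp22 (-0.54). Against siMyc, the difference was positive for Car12 (2.74), Ces2g (2.27), Mcm5 (1.83), Cdh1 (1.61), Snrpa1 (1.15) and Impdh2 (0.99), and negative for Mest (-4.41), Cdsn (-4.09) and Notum (-3.86).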

How the results depend on the processing

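With 2 libraries a group, leaving 1 out leaves a lone library whose spread is assumed to be that of the other groups. Counts without 1 library ranged from 3872 to 4466 rises and 1867 to 3116 falls with siGcn5; from 782 to 1826 responses higher and 827 to 2134 lower than with siControl; and from 1469 to 2409 higher and 1684 to 2592 lower than with siMyc. Quantile normalization gave 4461 falls, and a mean RPKM of at least 5 left 1513 responses lower than with siMyc; fewer genes were tested there. Scaling moved the split: rises were 61.6% of the siGcn5 calls as deposited, 49.2% after median-ratio scaling and 43% after quantile normalization, as the median of all genes moved from 0.075 to -0.013 and -0.075; higher responses were 44%, 57% and 52.2% of the calls against siControl, and 48.6%, 42.4% and 51% of those against siMyc. With a replicate block, 5176 genes rose and 3453 fell with siGcn5, and 2914 responses were lower than with siControl; 23 interferon and 11 sterol genes fell; the labels give no pairing beyond the number, and the deviations of same-numbered libraries had correlations of 0.093 to 0.489 over 15 pairs of groups. No response of a named gene reversed in sign under any setting among the calls reported. Depth limits genes near 0, whose fold changes are understated; voom on recovered reads called 4646 rises and 2899 falls.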

Other observations

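For the counts that follow, 36% of all genes tested rose and 22.4% fell with siGcn5. Of 20 tested genes of endoplasmic reticulum and amino acid stress, 10 fell and 2 rose in Gcn5-depleted cells (median -0.325). With siControl the counts were also 10 and 2 (median -0.32), but the responses of single genes differed. The siGcn5 response was called higher for 6 of the 20 and lower for 0 (median difference 0.33; 11.4% and 14.5% of all genes). That count of 6 moved by over 1.5 times without either siControl library without dox or siControl replicate 2 with dox. Ddit3, the stress factor CHOP, fell from 119 and 90.8 to 74.5 and 54.5 RPKM with siGcn5 and from 60.9 and 68.5 to 16.3 and 15.9 with siControl, and the responses differed by 1.24 (SE 0.22, adjusted p = 0.0058). Atf3, a stress-induced factor, rose from 1.54 and 1.2 to 8.79 and 7.18. Of 22 glycolysis genes 12 rose and 2 fell (median 0.33). Eno3, the muscle enolase, rose from 30.3 and 37 to 95.7 and 94.8 (log2 change 1.48, SE 0.11, adjusted p = 3.4e-06) and stood at 74.5 and 65.6 without dox and 87.2 and 75.2 with dox under siControl, a difference of 1.27 (SE 0.16, adjusted p = 0.0019). Of 20 sterol genes 5 fell, near the share of all genes; 2 fell without siGcn5 replicate 2 without dox, 8 after median-ratio scaling and 9 after quantile normalization. Of these 20 genes, 0 without dox and 1 with dox were higher in replicate 1 than in replicate 2. Of 28 genes of p53 and arrest 4 rose and 9 fell, with as few as 1 rise without siGcn5 replicate 2 without dox or replicate 1 with dox, and as few as 5 falls without siGcn5 replicate 1 without dox or replicate 2 with dox: Perp, a desmosomal p53 target, rose from 20.1 and 15.7 to 109 and 128, and Cdkn2b, the cell-cycle inhibitor p15, fell from 77.1 and 72.1 to 34.8 and 30.3.

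Of 13 AP-1 and immediate early genes 4 rose, a share below that of all genes, and 1 of the 13 passed the filter only through libraries with dox. Fosl1, the AP-1 subunit Fra-1, rose from 7.48 and 7.34 to 24.7 and 25.6 with siGcn5 and from 19.8 and 17.7 to 38.3 and 34.5 with siControl, a difference of 0.72 (SE 0.11, adjusted p = 0.0040). Of 29 growth factor and receptor genes 6 rose and 8 fell, the falls near the share of all genes. After quantile normalization 14 fell, and the count of falls was smaller without siGcn5 replicate 2 with dox. The filter was passed by 4 of the 29 only through libraries with dox, so the count of rises depends in part on the filter. Fgf7, the keratinocyte growth factor, stood at 4.91 and 8.17 without dox and 5.94 and 5.56 with dox, overlapping, and fell from 22.3 and 26.3 to 6.75 and 5.53 with siControl. Vegfa, the vascular growth factor, fell from 13.8 and 12.2 to 6.43 and 5.38. Of 17 bone and cartilage genes 3 rose and 4 fell, the falls near the share of all genes. After quantile normalization 9 fell. Here 2 of the 17 passed the filter only through libraries with dox, so the count of rises depends in part on the filter. Spp1, osteopontin, stood at 183 and 338 without dox and 244 and 232 with dox under siGcn5 and fell from 831 and 919 to 188 and 162 with siControl, a difference of 2.25 (SE 0.33, adjusted p = 0.0032). Among adipocyte genes, Cebpa rose from 1.29 and 1.51 to 5.01 and 5.54 and Fabp4, a fatty acid carrier, fell from 17.8 and 27 to 7.51 and 6.35.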
